A study of Mus musculus with 5 samples.

Results

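The 10 genes described here encode the channels, pump and sensors that move calcium out of and back into the endoplasmic reticulum of a neuron. They were chosen by symbol: Itpr1, Itpr2, Itpr3, Ryr1, Ryr2, Ryr3, Atp2a2, Stim1, Stim2 and Orai2. All 10 were found among the 32531 genes listed in the count tables. The counts come from translating ribosome affinity purification (TRAP), in which EGFP-tagged ribosomes are pulled down from a tissue homogenate with an antibody against EGFP and the RNA on them is sequenced. There were 3 libraries from dentate gyrus and 2 from cerebral cortex, all from untreated adult mice with the KL100 line of Rbp4-Cre and a Cre-dependent Rosa26 allele for EGFP-tagged Rpl10a. Both tissues therefore carry the same alleles and differ in the region dissected. Rbp4-Cre KL100 is widely used to reach pyramidal neurons of cortical layer 5. With the Cre-dependent allele, the tag marks cells in which Cre was active, at collection or earlier. No unpurified or untagged sample was analysed here, so background binding was not measured. The labels do not say whether libraries came from separate or pooled animals, and each p-value therefore reflects variation among these libraries only, part of which may be technical.

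The endoplasmic reticulum is the main calcium store of neurons. Inositol trisphosphate (IP3) receptors open when surface receptors that couple to Gq make phospholipase C release IP3, and ryanodine receptors open when cytosolic calcium rises. The SERCA pump encoded by Atp2a2 refills the store, the STIM proteins sense its calcium content, and Orai proteins form the plasma membrane channel that STIM opens when the store is empty.

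Total gene counts were 22600963 to 36837908 in the dentate gyrus libraries and 23967356 to 34887421 in the cortex libraries, so that 3 counts in a library equal 0.0814 to 0.133 counts per 1000000 (CPM). CPM below were scaled with edgeR's TMM factors. All 10 listed granule cell markers were called higher in dentate gyrus, with summed levels of 5281 to 5719 CPM there, against 394 and 450 CPM in cortex. Their part in the differences below was not tested. Of 6 layer 5 genes, 1 was called higher in dentate gyrus and 4 lower. One cortex library, replicate 1, stood apart through cerebellar Purkinje cell genes. Ppp1r17 had 35.7 CPM in cortex replicate 1 and no counts in any other library, and Car8, which encodes a protein that binds the IP3 receptor, had 411 CPM there, against 1.44 CPM in cortex replicate 2. Dentate gyrus replicate 2 stood apart through several genes. A list of 12 hippocampal CA pyramidal and mossy cell genes summed to 331 CPM there, against 49.5 and 88.5 CPM in dentate gyrus replicates 1 and 3. In that list Dcn was at 114 CPM, against 1.71 and 10.5 CPM, and Dlk1 at 83.4 CPM, against 0.110 and 13.0 CPM. Fibcd1, Coch, Man1a and Iyd of the list were not highest there. The whole list summed to 364 and 350 CPM in cortex replicates 1 and 2, so it does not set hippocampal cells apart from cortex. Of its genes, 4 were called higher in cortex and 1 higher in dentate gyrus. The layer 5 gene Fezf2 was at 60.2 CPM in dentate gyrus replicate 2, against 1.82 and 17.5 CPM in dentate gyrus replicates 1 and 3.

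Of the 10 genes, 9 had enough counts to be tested for a difference between dentate gyrus and cortex with edgeR's quasi-likelihood test, and a gene was called where its p, adjusted by Benjamini-Hochberg over all tested genes, was under 0.05. Orai2, Stim2 and the 3 ryanodine receptor genes were higher in dentate gyrus, and Itpr1 and Atp2a2 were higher in cortex. Itpr2 and Stim1 were not called, and Itpr3 was too low to test. The 7 calls among 9 tested genes (77.8%) stand beside 21.3% of the 14136 genes tested. Of the genes tested, 10.5% were called higher in dentate gyrus and 10.8% lower there. The 9 genes had a median log2 change of 1.12, dentate gyrus minus cortex, against 0.02 over all genes tested. Among genes averaging at least 10 CPM over the 5 libraries, 31.1% were called, and 6 of the 7 members at that level were called. The CPM of the 2 tissues did not overlap for 7 of the 9, as for 50.1% of all tested genes. Without cortex replicate 1 the number of members called was 4 (Itpr1, Ryr2, Stim2 and Orai2), and it was also 4 with dentate gyrus replicate 2 left out as well.

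**Figure D1:**
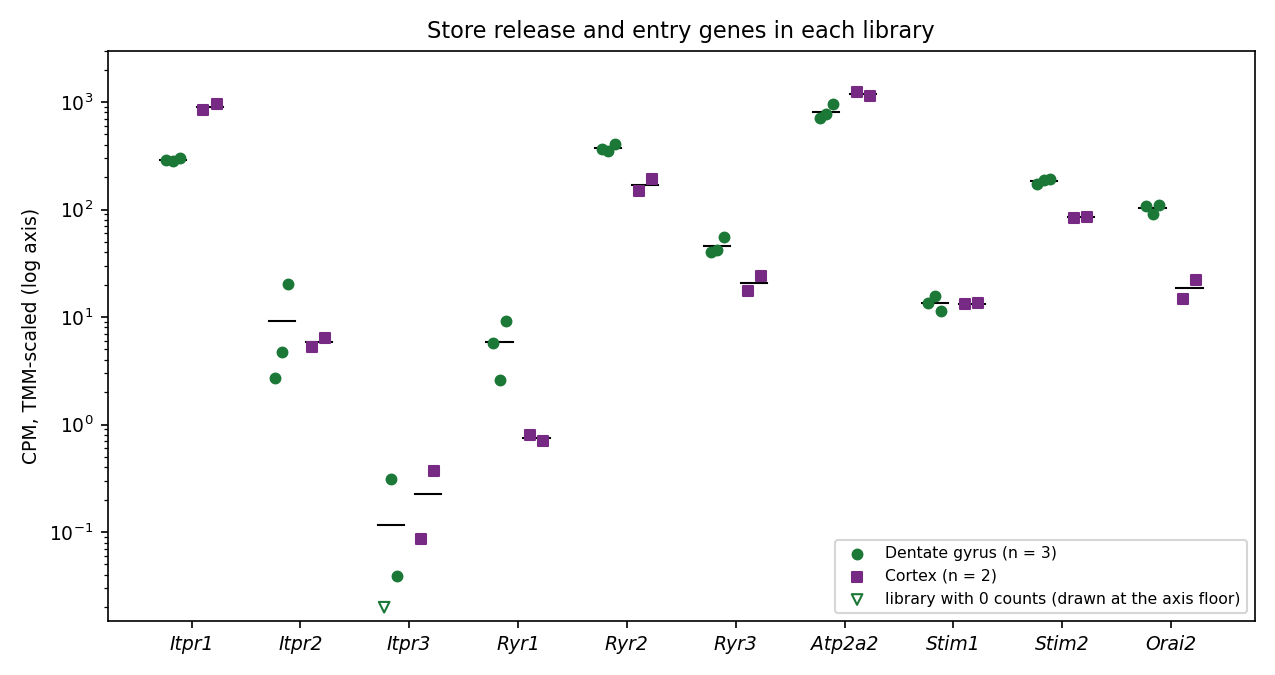
Level of each gene in CPM (log axis) in each dentate gyrus library (green circles, n = 3) and each cortex library (purple squares, n = 2), with the mean of each tissue as a black line; an open triangle marks a library with 0 counts. Itpr1 and Atp2a2 lie lower in dentate gyrus than in cortex, and Ryr1, Ryr2, Ryr3, Stim2 and Orai2 lie higher there.

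Among the release channels, the IP3 receptor genes are described first and the ryanodine receptor genes after them. Itpr1, on chromosome 6 (108213096 to 108551109, plus strand, GRCm38), encodes the main neuronal IP3 receptor and is known for its high level in Purkinje cells. Its level was 287.5, 283.5 and 301.7 CPM in dentate gyrus replicates 1, 2 and 3, against 840 and 963 CPM in cortex replicates 1 and 2. Every dentate gyrus library was below both cortex libraries, and the libraries of each tissue lay close together. Itpr1 was 3.10-fold lower in dentate gyrus (log2 change -1.63, SE 0.11, adjusted p 1.12e-05 by edgeR). The cortex library with the Purkinje cell genes was the lower of the 2 cortex libraries for Itpr1, and without it the log2 change was -1.72. The sum of 9 listed interneuron markers moved in the same direction as Itpr1. It was 256 to 289 CPM in dentate gyrus and 910 and 904 CPM in cortex replicates 1 and 2. Most of the cortex sums was Sst, at 700 and 641 CPM, against 113, 80.8 and 72.4 CPM in the dentate gyrus libraries. Of the 9 genes, 2 were called higher in dentate gyrus, Gad1 and Adarb2, and 5 lower. Astrocyte markers, 11 genes, summed to 657 to 819 CPM in dentate gyrus and to 1222 and 1239 CPM in cortex. Most of these cortex sums was Slc1a2, at 984 and 1004 CPM, against 595, 619 and 717 CPM in the dentate gyrus libraries. Of the 11 genes, 5 were called lower in dentate gyrus and 0 higher. Aqp4, Slc1a3, Gfap, Gja1 and Fgfr3 went the other way, with higher means in dentate gyrus, and were not called. The part of either list in the Itpr1 difference was not tested. In such bulk samples, fewer cells of a type and less RNA per cell cannot be told apart.

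Itpr2 (chromosome 6, 146108299 to 146502223, minus strand), known as the main IP3 receptor gene of astrocytes, was low and uneven. It had 2.73, 4.75 and 20.2 CPM in dentate gyrus replicates 1, 2 and 3, against 5.22 and 6.44 CPM in the cortex libraries. Dentate gyrus replicate 3 alone was above the cortex libraries, while the other 2 dentate gyrus libraries were below them. The log2 change was 0.66 with a 95% interval of -1.10 to 2.43 (adjusted p 0.624), and it was -0.65 without dentate gyrus replicate 3. That library also had the highest sum of the 11 astrocyte markers within dentate gyrus, at 819 CPM, against 657 and 686 CPM in replicates 1 and 2. Most of that sum was the glutamate transporter gene Slc1a2, at 717 CPM in replicate 3, against 595 and 619 CPM in replicates 1 and 2. Slc1a3, Aqp4, Gfap, Sox9, Aldoc and Gjb6 were also highest in replicate 3, with Slc1a3 at 34.65 CPM and Aqp4 at 24.5 CPM. For Aldoc and Gjb6 the margin was small, at 21.3 against 20.5 CPM and 6.54 against 6.07 CPM in the next library. Gja1 and Fgfr3 were highest in replicate 2, at 5.82 and 7.73 CPM, and Aldh1l1 and S100b in replicate 1. Of the 11 genes, 5 were called, all lower in dentate gyrus than in cortex. Their part in the Itpr2 values was not tested. Itpr3 (chromosome 17, 27057304 to 27122223, plus strand), the IP3 receptor gene best known from epithelial and secretory cells, had 0, 7 and 1 counts in dentate gyrus replicates 1, 2 and 3, against 3 and 9 counts in the cortex libraries. These counts were at or near the floor of 3 in both tissues, so no difference was detectable at this depth.

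The ryanodine receptor genes were all higher in dentate gyrus, with unequal support. Ryr2 (chromosome 13, 11553102 to 12106945, minus strand), the ryanodine receptor gene of heart that is also the common form in forebrain neurons, was at 362, 349 and 404 CPM in dentate gyrus replicates 1, 2 and 3, against 149 and 192 CPM in the cortex libraries. The lowest dentate gyrus library was well above the higher cortex library. Ryr2 was 2.18-fold higher in dentate gyrus (log2 1.12, SE 0.15, adjusted p 0.000637 by edgeR), and it was called under each of the 16 alternatives tried. Ryr3 (chromosome 2, 112631355 to 113217096, minus strand), a form known from hippocampus and striatum, had 40.3, 42.15 and 55.3 CPM in dentate gyrus, against 17.45 and 24.0 CPM in cortex. The tissues did not overlap, and the log2 change was 1.15 (SE 0.28, adjusted p 0.0164). The call for Ryr3 was lost without dentate gyrus replicate 3 (adjusted p 0.0607) and without cortex replicate 1 (adjusted p 0.122). Exons of Ryr3 overlap Aven on the other strand over 916 bases, and Aven itself had only 28 to 58 counts in dentate gyrus and 35 to 81 counts in cortex.

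Ryr1 (chromosome 7, 29003344 to 29125179, minus strand), the ryanodine receptor gene of skeletal muscle that Purkinje cells also use, was the rarest tested member. It had 5.74, 2.58 and 9.16 CPM in dentate gyrus replicates 1, 2 and 3, from 208, 58 and 234 counts, against 0.798 and 0.697 CPM in the cortex libraries, from 28 and 17 counts. All dentate gyrus libraries were above cortex, but they spread 3.56-fold among themselves. The fitted change was 7.74-fold (log2 2.95, SE 0.86, 95% interval 1.04 to 4.87, adjusted p 0.0349 by edgeR). The call was lost without dentate gyrus replicate 1 (adjusted p 0.0657), dentate gyrus replicate 3 (0.145), cortex replicate 1 (0.126) or cortex replicate 2 (0.160). Skeletal muscle markers summed to 1.10 to 5.82 CPM in dentate gyrus and to 6.16 and 2.67 CPM in cortex, and Tnnt3 among them had no counts in any library. The only muscle marker with enough counts to test, Acta1, averaged 2.85 CPM in dentate gyrus, against 1.95 CPM in cortex (log2 0.55, adjusted p 0.7535 by edgeR). Their part in the Ryr1 difference was not tested. An antisense gene, Gm26604, shares 864 exon bases with Ryr1 and is not among the genes counted.

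**Figure D2:**
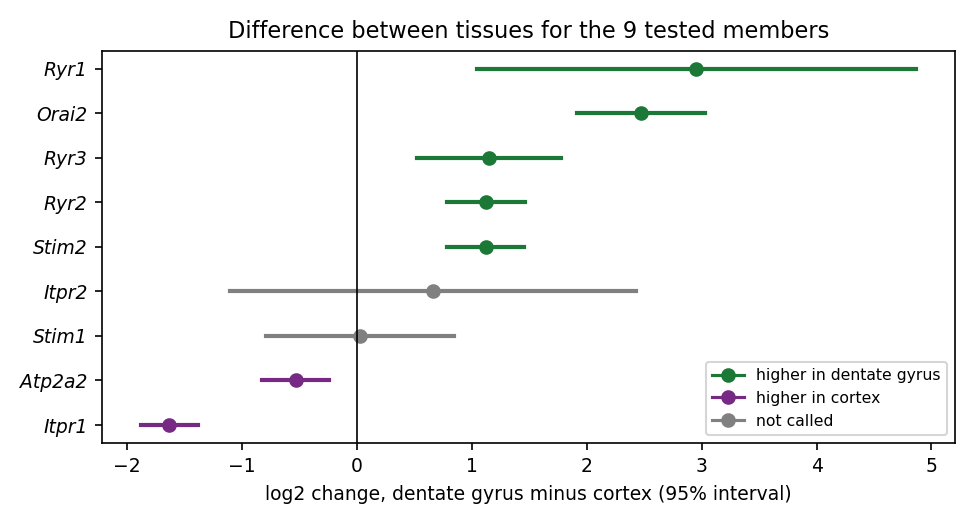
Log2 change (dentate gyrus minus cortex) of the 9 tested genes as points, with 95% intervals from edgeR as lines; green is higher in dentate gyrus, purple higher in cortex and grey not called. Orai2 at 2.47 and Itpr1 at -1.63 are far from 0 with narrow intervals, while Ryr1 at 2.95 has a wide one.

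The 2 receptor families thus differed in opposite directions, which changed the makeup of release channel transcripts. For a comparison between genes, CPM were divided by the length of all annotated exons of the gene in kilobases (CPM per kb). The 3 IP3 receptor genes together had 16.5 ± 1.15 CPM per kb in dentate gyrus (SD, n = 3) and 49.6 ± 4.83 CPM per kb in cortex (SD, n = 2). The 3 ryanodine receptor genes together had 15.6 ± 1.54 CPM per kb in dentate gyrus and 7.05 ± 1.31 CPM per kb in cortex. Summed over both families the level was 32.1 ± 2.68 CPM per kb in dentate gyrus and 56.7 ± 6.13 CPM per kb in cortex.

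As a share of all 6 release channels, ryanodine receptors made up 48.5%, 47.8% and 49.3% in the dentate gyrus libraries, against 11.7% and 13.1% in the cortex libraries. The groups were far apart, by 36.1 percentage points between means. An exact two-sided permutation test over the samples gave p = 0.2. That is the smallest value this test, which doubles the one-sided p, can give with 3 against 2 samples. The difference was 34.5 points with the longest transcript as length and 41.1 points without length scaling. Without length scaling, ryanodine receptors made up 58.45%, 57.74% and 59.26% in dentate gyrus, against 16.5% and 18.3% in cortex. Which family was the larger in dentate gyrus thus depended on the length scaling, while IP3 receptors were the larger in cortex either way. Within a library the ratio of Ryr2 to Itpr1, both per kb, was 0.802, 0.784 and 0.852 in dentate gyrus, against 0.113 and 0.127 in cortex.

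**Figure D3:**
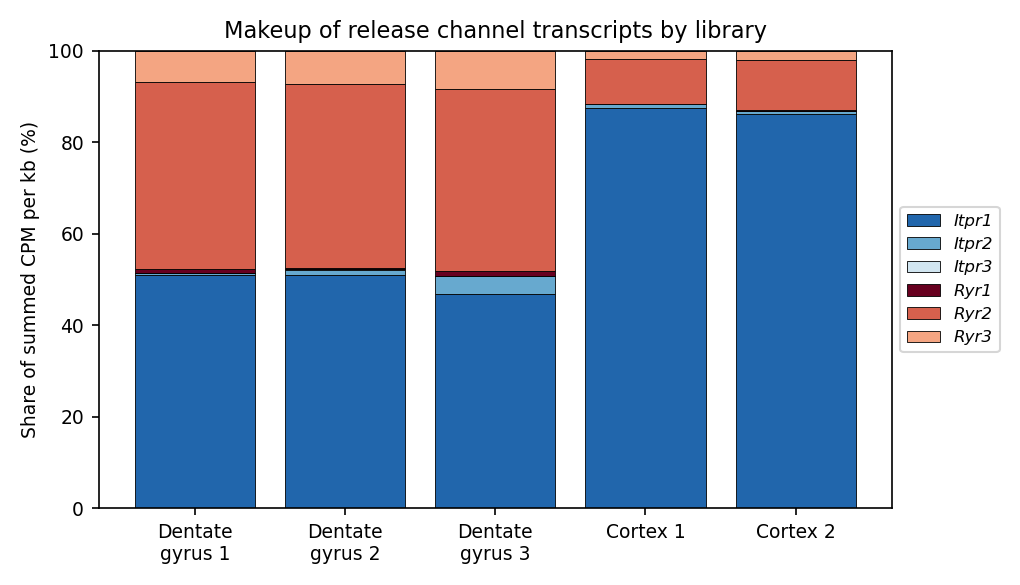
Share of each of the 6 release channel genes in their summed CPM per kb (y axis, percent), 1 bar for each dentate gyrus library (left) and each cortex library (right). Ryanodine receptors (red shades) take 47.8% to 49.3% in dentate gyrus, against 11.7% and 13.1% in cortex.

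Within the families the leading gene was the same in both tissues. Itpr1 made up 98.84%, 97.75% and 92.32% of IP3 receptor transcripts in dentate gyrus replicates 1, 2 and 3, against 99.22% and 99.10% in cortex. The share was lowest in dentate gyrus replicate 3, the library with the high Itpr2 value (exact two-sided permutation p = 0.2, the smallest possible). The mean difference of -2.85 points was -0.864 points without that library. Ryr2 made up 84.05%, 83.84% and 80.79% of ryanodine receptor transcripts in dentate gyrus, against 84.41% and 83.75% in cortex, and these values overlapped (exact two-sided permutation p = 0.6). Wilson 95% intervals of the raw count shares in single libraries were at most 1.71 points wide for the shares of Itpr1, of Ryr2 and of all ryanodine receptors, and they cover counting error only.

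Atp2a2 (chromosome 5, 122453513 to 122502225, minus strand) encodes SERCA2, the pump that returns calcium to the store. It had 705, 782 and 956 CPM in dentate gyrus replicates 1, 2 and 3, against 1232 and 1127 CPM in the cortex libraries. The tissues did not overlap, but dentate gyrus replicate 3 came near the lower cortex library. Atp2a2 was 1.45-fold lower in dentate gyrus (log2 -0.53, SE 0.13, adjusted p 0.0171 by edgeR). The call was lost without cortex replicate 1 (log2 -0.46, adjusted p 0.111). Per kb, the ratio of Atp2a2 to Itpr1 was 7.39, 8.31 and 9.55 in dentate gyrus, against 4.42 and 3.53 in cortex.

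The store sensors differed in how they behaved. Stim2 (chromosome 5, 53998499 to 54121057, plus strand), which responds to small losses of store calcium, had 173, 189 and 193 CPM in dentate gyrus, against 84.3 and 85.7 CPM in cortex. The libraries of each tissue were tightly grouped, with a highest to lowest ratio of 1.12 in dentate gyrus and 1.02 in cortex. Stim2 was 2.17-fold higher in dentate gyrus (log2 1.12, SE 0.15, adjusted p 0.000619), and it was called under each of the 16 alternatives. Stim1 (chromosome 7, 102267806 to 102437319, plus strand), the sensor that answers deep store depletion, had 13.4, 15.8 and 11.4 CPM in dentate gyrus, against 13.1 and 13.5 CPM in cortex. The cortex values lay inside the dentate gyrus range, and the log2 change of 0.03 had a 95% interval of -0.79 to 0.85 (adjusted p 0.973). Stim2 made up 96.3%, 96.0% and 97.2% of STIM transcripts per kb in dentate gyrus, against 92.85% and 92.77% in cortex (exact two-sided permutation p = 0.2, the smallest possible). This difference of 3.68 points was 7.37 points with the longest transcript as length, because the annotated exons of Stim1 cover 10371 bases and its longest transcript 4362 bases.

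Orai2 (chromosome 5, 136147459 to 136170713, minus strand), a pore subunit of the store-operated entry channel, had 108, 91.1 and 109 CPM in dentate gyrus replicates 1, 2 and 3, against 14.9 and 22.2 CPM in the cortex libraries. The lowest dentate gyrus library was several times above the higher cortex library. Orai2 was 5.55-fold higher in dentate gyrus (log2 2.47, SE 0.25, adjusted p 0.000108 by edgeR), and the log2 change ran from 2.22 to 2.76 over the 16 alternatives, all of which called it. The other pore genes were named here as its paralogs. Orai3 had 10.8, 12.5 and 22.7 CPM in dentate gyrus and 10.2 and 13.5 CPM in cortex, and Orai1 was under 0.8 CPM in each library. Neither was called, with adjusted p of 0.619 for Orai3 and 0.808 for Orai1. Per kb, Stim2 exceeded Orai2 by a ratio of 1.89, 2.45 and 2.10 in dentate gyrus, against 6.72 and 4.57 in cortex.

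Ordered by CPM per kb in dentate gyrus, Atp2a2 (134 ± 21.2) was followed by Stim2 (36.0 ± 2.11), Orai2 (16.9 ± 1.66), Itpr1 (15.9 ± 0.522), Ryr2 (12.9 ± 0.989), Ryr3 (2.42 ± 0.431), Stim1 (1.31 ± 0.213), Itpr2 (0.624 ± 0.646), Ryr1 (0.267 ± 0.151) and Itpr3 (SD, n = 3). Orai2 and Itpr1 overlapped between libraries, as did Stim1 with Itpr2 and Itpr2 with Ryr1. With the longest transcript as length, Itpr1 came above Orai2 and Stim1 above Ryr3 in dentate gyrus. In cortex the order was Atp2a2 (194 ± 12.2), Itpr1 (49.2 ± 4.75), Stim2 (16.6 ± 0.193), Ryr2 (5.93 ± 1.06), Orai2 (3.05 ± 0.854), Stim1 (1.28 ± 0.0260), Ryr3 (1.09 ± 0.244), Itpr2 (0.394 ± 0.0584), Ryr1 and Itpr3 (SD, n = 2). There Stim1 met Ryr3, and Ryr1 overlapped Itpr3, both under 0.05 CPM per kb. By exon length Orai2 was thus above Ryr2 in each dentate gyrus library, and below both Itpr1 and Ryr2 in cortex. Its order against Itpr1 in dentate gyrus was not settled. In dentate gyrus replicate 2 Orai2 was the lower, at 14.99 against 15.47 CPM per kb.

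Promoter sequence was available for 7 of the 10 genes in RefSeq on GRCm38.p6. The upstream bases of 4 of the 5 genes called higher in dentate gyrus are shown, chosen for that shared direction only. Each runs 5′ to 3′ on the gene's strand and ends where the annotated gene begins; capitals mark GGGCGG or CAGATG, read on both strands. They are Ryr1 at chr7:29125180-29125401 on the minus strand, Ryr2 at chr13:12106946-12107195 on the minus strand, Stim2 at chr5:53998273-53998498 on the plus strand and Orai2 at chr5:136170714-136170906 on the minus strand.
Ryr1: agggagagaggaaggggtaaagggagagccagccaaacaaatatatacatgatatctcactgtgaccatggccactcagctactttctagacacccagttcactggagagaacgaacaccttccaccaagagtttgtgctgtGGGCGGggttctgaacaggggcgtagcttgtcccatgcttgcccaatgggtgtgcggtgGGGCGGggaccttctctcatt
Ryr2: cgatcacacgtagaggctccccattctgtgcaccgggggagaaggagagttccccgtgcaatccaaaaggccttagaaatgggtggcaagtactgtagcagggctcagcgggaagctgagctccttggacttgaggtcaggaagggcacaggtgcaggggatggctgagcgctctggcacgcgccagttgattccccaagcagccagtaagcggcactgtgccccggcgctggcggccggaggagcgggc
Stim2: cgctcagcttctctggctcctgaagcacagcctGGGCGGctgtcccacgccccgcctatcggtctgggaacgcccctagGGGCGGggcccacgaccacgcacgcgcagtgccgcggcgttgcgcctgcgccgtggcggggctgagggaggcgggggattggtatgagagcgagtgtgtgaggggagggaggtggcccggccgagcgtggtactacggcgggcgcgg
Orai2: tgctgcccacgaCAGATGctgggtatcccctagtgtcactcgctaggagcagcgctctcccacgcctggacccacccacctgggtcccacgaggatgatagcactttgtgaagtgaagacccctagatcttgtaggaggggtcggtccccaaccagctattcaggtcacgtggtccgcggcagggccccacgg
Motifs were counted in the 250 bases before each RefSeq start. These windows can reach past the printed end, so a counted match, such as the GC box of Orai2, may lie outside the letters shown. The GC box letters GGGCGG occurred in 6 of the 7 windows, Ryr2 being the one without them, and in 32.7% of all 32851 windows. CAGATG, an E-box of the kind that NeuroD factors bind, occurred only in the Orai2 window among the 7, and in 14.4% of all windows. CAGCTG, the cAMP response element TGACGTCA and TATAAA occurred in 0 of the 7, against 13.0%, 1.55% and 12.4% of all windows. The windows held 6 CG dinucleotides for Ryr1, 14 for Ryr2, 30 for Stim2 and 17 for Orai2, where the median of all windows was 6. No motif was shared by all 4 shown genes, and a match is a description of letters only.

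Other genes of the pathway were read from 9 lists with 113 distinct genes in the files, of which 92 were tested. In these lists 11 genes were called higher in dentate gyrus and 12 lower, so 25% were called, close to the 21.3% of all genes. Their median log2 change was -0.12, against 0.02 over all genes tested. The genes named below are given by their roles.

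Of 16 genes of IP3 production, 2 were called higher in dentate gyrus and 2 lower. Plcb4, a Gq-driven phospholipase C, had 16.3, 20.7 and 22.55 CPM in dentate gyrus, against 193 and 198 CPM in cortex, and was 9.83-fold lower in dentate gyrus (log2 -3.30, SE 0.20, adjusted p 5.67e-06). Its relative Plcb1, named here because it was the most abundant phospholipase of the list, was at 652, 660 and 697.5 CPM in dentate gyrus, against 808 and 757 CPM in cortex, and was not called (log2 -0.22, SE 0.10, adjusted p 0.154). The catalytically inactive, IP3-binding relatives moved apart: Plcl1 was higher in dentate gyrus (log2 1.83, SE 0.24, adjusted p 0.000546) and Plcl2 lower (log2 -1.75, SE 0.31, adjusted p 0.00288). Gnaq, the alpha subunit of Gq and chosen after its values were seen, was higher in dentate gyrus (log2 0.47, SE 0.12, adjusted p 0.0175), a call lost without dentate gyrus replicate 3 (adjusted p 0.0634), cortex replicate 1 (0.122) or cortex replicate 2 (0.0533). Of 7 tested genes of IP3 removal, 1 was called. It was Inpp5a, a phosphatase of IP3, which was lower in dentate gyrus (log2 -1.37, SE 0.38, adjusted p 0.0279). That call was lost without any 1 library other than dentate gyrus replicate 3, with adjusted p of 0.0553 to 0.201.

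Of 17 tested partners of the receptors, 5 were called higher in dentate gyrus and 5 lower, which is 58.8%. Ahcyl2, a relative of the IP3 receptor inhibitor IRBIT, had 442, 376 and 489 CPM in dentate gyrus, against 106 and 142 CPM in cortex (log2 1.81, SE 0.18, adjusted p 8.31e-05). Sri, which encodes the ryanodine receptor ligand sorcin, averaged 165 ± 13.9 CPM in dentate gyrus, against 72.0 ± 5.83 CPM in cortex (log2 1.20, SE 0.17, adjusted p 0.000755). The FK506-binding proteins that sit on ryanodine receptors moved in opposite directions, and they were chosen after their values were seen. Fkbp1a averaged 1979 ± 24.3 CPM in dentate gyrus, against 1460 ± 66.9 CPM in cortex (adjusted p 0.00484). Fkbp1b averaged 9.71 ± 5.96 CPM in dentate gyrus, against 38.1 ± 6.12 CPM in cortex (adjusted p 0.0161, and 0.0904 without cortex replicate 2). Car8, also in this list and likewise chosen, was called higher in cortex through cortex replicate 1, and without that library its adjusted p was 0.545.

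Genes of junctions between the reticulum and the plasma membrane were led by a junctophilin. Of 13 tested, 3 were called higher in dentate gyrus and 1 lower. Jph1, which tethers the reticulum to the plasma membrane and is best known from muscle, had 391, 272.5 and 322 CPM in dentate gyrus, against 35.5 and 50.1 CPM in cortex. It was 7.69-fold higher in dentate gyrus (log2 2.94, SE 0.22, adjusted p 1.93e-05). The neuronal junctophilin gene Jph4 averaged 524 ± 60.3 CPM in dentate gyrus, against 285 ± 4.51 CPM in cortex (log2 0.88, SE 0.13, adjusted p 0.00112). Jph3, its neuronal relative and named here for that, had 65.6 to 77.2 CPM in dentate gyrus and 47.9 and 49.6 CPM in cortex and was not called (adjusted p 0.0830). Osbpl3, a lipid-binding protein gene, was lower in dentate gyrus (7.02 ± 2.62 CPM, against 50.6 ± 5.05 CPM in cortex, adjusted p 0.000444). C2cd2l, also chosen after its values were seen, was called at an adjusted p of 0.0465, which rose above 0.05 without any 1 of the 5 libraries (0.0848 to 0.247) and under RLE (0.0539) and upper quartile scaling (0.0575).

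Of 7 other tested genes of store-operated entry, 1 was called. Sept7, whose counterpart restrains Orai entry in Drosophila neurons, averaged 161 ± 4.33 CPM in dentate gyrus, against 490 ± 36.4 CPM in cortex (log2 -1.60, SE 0.12, adjusted p 1.93e-05). Of 4 tested genes in the list of other pumps and pump regulators, 1 was called. It was Atp2c1, the calcium pump of the Golgi and the only pump among the 4. Atp2c1 was higher in dentate gyrus (log2 0.57, SE 0.16, adjusted p 0.0277). This call was lost without any 1 of the 5 libraries, with adjusted p of 0.0559 to 0.146. Atp2a1 and Atp2a3, the other SERCA genes, were at or under 2.20 CPM in each library and were not tested.

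**Figure D4:**
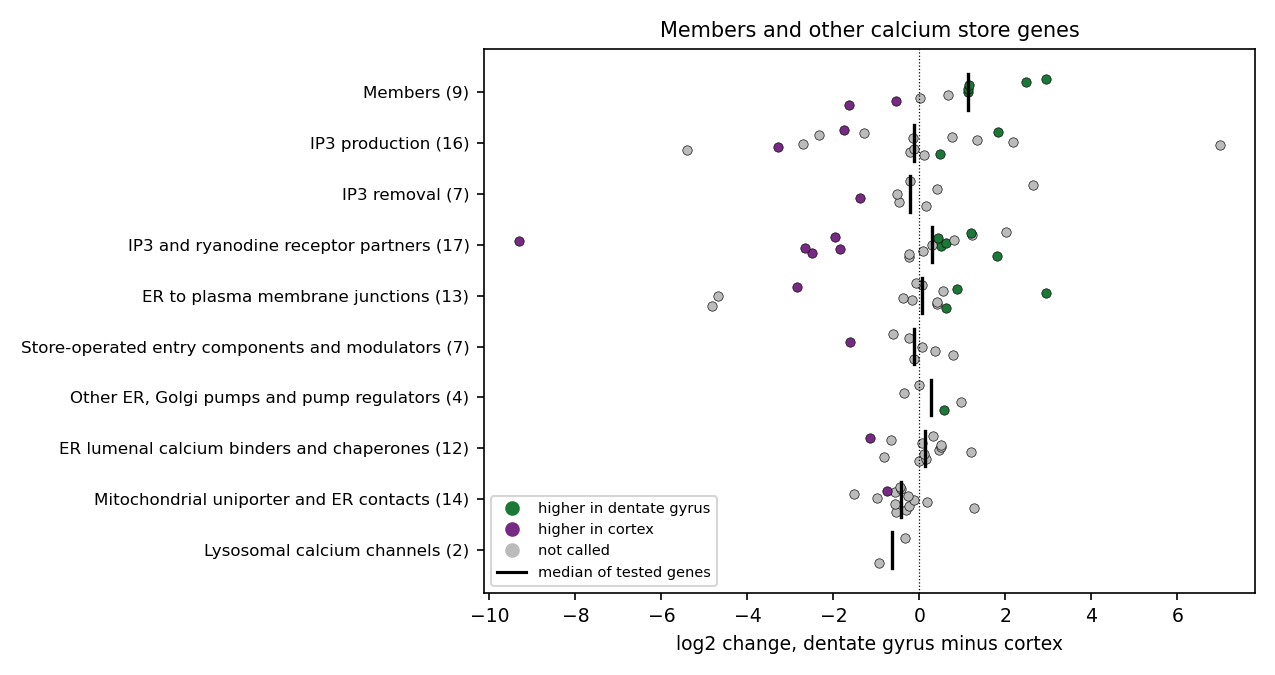
Log2 change (dentate gyrus minus cortex, x axis) of each tested gene among the members and in 9 lists of related genes, with the number tested in brackets; green was called higher in dentate gyrus, purple higher in cortex and grey not called, and the black line is the median. Fitted values beyond 4 in either direction belong to rare genes, or to Car8 at -9.31. The members have a median of 1.12, and the medians of the 9 lists run from -0.64 (lysosomal channels) to 0.28 (receptor partners).

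The genes most like the members with the largest change in each direction were found by the root mean square difference of log2 CPM over the 5 libraries, after centring each gene on its own mean. For Itpr1 they were Nlk (0.0372), Rab15 (0.0656) and Pfkp (0.0804). Nlk averaged 346 ± 4.17 CPM in dentate gyrus, against 1099 ± 60.9 CPM in cortex (log2 -1.67, adjusted p 5.91e-06). For Ryr1 they were Prkd2 (0.174), Wnt16 (0.254) and AK037550 (0.274), all rare genes that were not called themselves, with adjusted p of 0.155, 0.194 and 0.0618. With 5 libraries in 2 tissues, many genes share such patterns, and nothing about function follows from them.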

How the data were processed

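RNA from EGFP-tagged ribosomes was measured in 3 dentate gyrus and 2 cortex libraries. For each library the authors deposited a table of raw counts, listed by gene symbol. STAR 2.0.0e, HTSeq and mm10 were used, per the submitters' processing notes. Neither annotation nor strand setting is given there, so antisense reads may be shared. Rows that name no gene (40.2% to 44.6% of reads, mostly reads without a unique place) entered neither the library totals nor any test.

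Counts were scaled by TMM and filtered with filterByExpr, and 14136 genes were tested with edgeR 4.0.16 in R 4.3.3 by a quasi-likelihood F test on tissue, dentate gyrus minus cortex. The p-values were adjusted over all of them. Positions and lengths came from GENCODE M21 (GRCm38, which mm10 also denotes). Shares were tested by exact permutation with scipy 1.17.1. The procedure was tested on simulated data. No library repeated another: chi-square per degree of freedom was 40.3 to 56.8 between libraries of the same tissue.

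The members, lists, tests and alternatives were chosen with earlier results of these data known. Named genes were the members, up to 3 called genes per list with the smallest adjusted p, and the genes most like the largest changes; Gnaq, C2cd2l, Car8, Fkbp1a, Fkbp1b, Plcb1, Jph3, Orai1, Orai3, Atp2a1, Atp2a3, Mcoln1 and Tpcn1 are outside this rule and were chosen after their values were seen, as were the single marker genes. One gene the rule named is not reported here. Of the listed pathway symbols, 3 are not in the files. Alternatives were 2 other scalings, 2 other filters, a replicate block, robust dispersion, DESeq2 1.42.0, limma 3.58.1 voom, a 1.5-fold threshold, removal of Rn45s, removal of each library, and removal of both libraries that stood apart. The share of ryanodine receptors was added as a result after the data were seen.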

Additional observations from a re-analysis of the deposited data

How the results depend on the processing

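Itpr1, Ryr2, Stim2 and Orai2 kept their direction and their call under all 16 alternatives. The number of members called was 7 in the fit as reported, 4 for a change above 1.5-fold, 4 with cortex replicate 1 and dentate gyrus replicate 2 both left out, and 4 to 7 when each library was left out. All genes called numbered 1545, 1578 and 1886 to 2775 under the same alternatives, against 3009, and pathway genes called 13, 13 and 17 to 24, against 23. Fewer samples or a higher bar enter these fits by construction. Among genes that were not called, Stim1 changed sign at -0.009 under upper quartile scaling, -0.004 with at least 50 counts in 2 libraries, -0.114 without both libraries, and -0.113 to 0.122 when each library was left out. The leave-one-out range was -0.654 to 1.084 for Itpr2, -0.038 to 0.556 for Orai3 and -0.208 to 6.86 for Orai1, and the cause was not tested. With the replicate number as a block, 5 members were called, since Ryr1 (adjusted p 0.134) and Ryr3 (0.0594) were lost, Itpr2 was at -0.685 and Orai3 at -0.015, and 2237 of all genes and 22 pathway genes were called. Same-numbered libraries of the tissues did not deviate together (correlations across genes of -0.004 and -0.0163). The labels do not say whether a shared number marks shared animals, so whether the libraries are paired is not known. By limma voom the adjusted p of Ryr1 was 0.0843. The differences in shares were computed under 8 alternatives (2 other length scalings, each library left out, both libraries left out) and kept their direction in all 8. Depth limits Itpr3, with at most 9 counts in a library.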

Other observations

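Calcium genes of the store lumen, mitochondria and lysosomes were also listed. Of 12 tested calcium binders and chaperones of the lumen, 1 was called, Rcn2, which encodes a reticulocalbin. Rcn2 averaged 25.6 ± 3.60 CPM in dentate gyrus, against 57.0 ± 4.20 CPM in cortex (log2 -1.16, SE 0.24, adjusted p 0.00726 by edgeR), a call lost without cortex replicate 1 (0.0607). Of 14 tested genes of the mitochondrial uniporter and its contacts with the reticulum, 1 was called, Vdac1, the channel of the outer mitochondrial membrane. Vdac1 averaged 184 ± 10.5 CPM in dentate gyrus, against 308 ± 7.07 CPM in cortex (log2 -0.74, SE 0.13, adjusted p 0.00253), a call lost when cortex replicate 1 and dentate gyrus replicate 2 were both left out (0.0565). Neither of the 2 tested lysosomal channel genes, Mcoln1 and Tpcn1, was called by edgeR (adjusted p 0.256 and 0.698, unadjusted p 0.107 and 0.510). The list medians were 0.13 for the lumen, -0.43 for mitochondria and -0.64 for the lysosome, against 0.02 over all genes tested. The shares called were 8.33%, 7.14% and 0%, against 21.3% of all genes tested.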
